A study of Mus musculus with 8 samples.

Results

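The HIRA complex was depleted in 3 ways, and the 6 knockdown libraries of an RNA-seq experiment in mouse ESCs, 2 each from Hira, Ubn1 and Ubn2 shRNA cells, were compared as one set with the 2 control libraries. They are 6 of the 8 libraries of the experiment. Members were chosen by their labels alone, and no expression value was used. The question was what losing one subunit did on average, and how far that average described each of the 3 depletions.

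All 8 libraries came from E14, a mouse ESC line with the strain label 12910la, grown on gelatin with serum and LIF. Cells of the Hira, Ubn1 and Ubn2 groups received pSuper puro plasmid carrying an shRNA to that gene, 1000 ng per transfection. The 2 control libraries carry the genotype label wild type, and the study's methods name a control shRNA against luciferase. Per the labels, puromycin at 1 µg/ml was added 24 h after transfection and kept for 3 days, so the libraries describe an early, partial loss in a selected pool and not a clone without the gene. The labels do not say whether the replicates of a group were separate cultures, so p-values measure the spread between these libraries, which may be technical. Every depletion was set against the same 2 control libraries. An effect shared by the 3 depletions and a property of those 2 libraries cannot be told apart.

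HIRA is a histone chaperone that places the variant histone H3.3 into chromatin outside of DNA replication, at genes and at other open sites. Hira is the scaffold subunit, Ubn1 and Ubn2 are related subunits that hold H3.3, and Cabin1 completes the complex, while Asf1a hands histones over to it. In ESCs the H3.3 pathway is known for its part in the control of retrotransposons. Reads on retrotransposon families were not analysed here.

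Total counts on genes lay between 19710040 and 32706053 per library, at which 3 counts equal 0.0917 to 0.152 CPM (counts scaled to library size), a floor that covers counting error only. Levels below are CPM on TMM-scaled library sizes. Differences are log2 fold changes of the quasi-likelihood model of edgeR, as the mean of the 3 depletions minus control, each depletion weighing the same. Adjusted p-values are Benjamini-Hochberg values over the 19264 genes tested. A gene counted as called when its average fold passed 1.5 in either direction and its adjusted p lay below 0.05.

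The targeted genes were examined first. Hira stood at 89.5 and 97.7 CPM in the control libraries and at 10.0 and 10.4 CPM in the Hira libraries. In the other 4 knockdown libraries Hira lay between 105 and 118 CPM. Ubn1 stood at 53.1 and 44.1 CPM in controls and at 23.8 CPM in both Ubn1 libraries. Ubn2 stood at 50.1 and 51.7 CPM in controls and at 30.1 and 24.6 CPM in the Ubn2 libraries. Each transcript was thus lowest where it was targeted, but to different extents, with log2 fold changes of -3.20, -1.02 and -0.89. The average of the 3 depletions does not describe these genes. It gave -0.92 for Hira (SE 0.07, adjusted p = 1.89e-09), a call that turned to 0.21 (adjusted p = 0.0348) when the Hira depletion was left out of the average. For Ubn1 the average was -0.25 (SE 0.08, adjusted p = 0.0217) and for Ubn2 -0.18 (SE 0.08, adjusted p = 0.109), with neither called. Of the 14 listed genes of the HIRA complex and of other H3.3 and H3 chaperones, Hira was the 1 called, and the list's median average change was -0.04, beside 0.0017 over all genes tested.

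On average, 1008 genes were higher after depletion, 5.23% of those tested, and 647 were lower, 3.36%. These shares, and 8.59% for either direction, are the background for the counts of called list members below. Most of the average calls were not shared evenly. Of the 1008 higher genes, 451 had a fitted change past 1.5-fold in all 3 depletions, 430 in 2 of them and 127 in 1. Of the 647 lower genes, 182 passed that fold in all 3, 349 in 2 and 116 in 1. Where 1 depletion alone carried the call of a higher gene, it was Hira depletion for 62 genes, Ubn2 depletion for 65 and Ubn1 depletion for 0. For lower genes it was Hira depletion for 25, Ubn1 depletion for 2 and Ubn2 depletion for 89. A depletion had the opposite sign to the average at 65 of the higher and 57 of the lower genes, but passed 1.5-fold in that opposite direction at 3 and 1 of them.

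**Figure D1:**
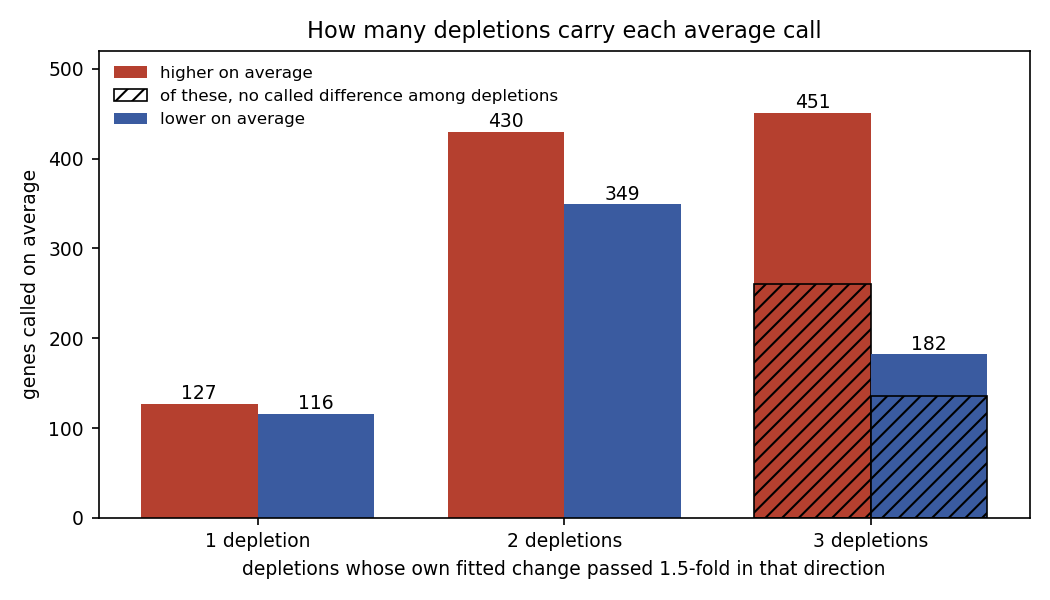
Genes called higher (red) or lower (blue) on average, by the number of depletions whose own fitted change passed 1.5-fold in that direction. The y axis counts genes, and the hatched parts, 260 and 136 genes, are those without a called difference among the depletions.

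Whether the 3 depletions differed was tested by an F test of the 3 knockdown groups against each other, a contrast without the controls. The fit was the same, so the control libraries still entered the filter, the scaling and the error. With the same 2 thresholds, the fold now being that between the highest and the lowest depletion, the test called 4480 genes, 23.3% of the genes tested. Among the genes called on average, 589 of the 1008 higher genes (58.4%) and 355 of the 647 lower genes (54.9%) were called as differing. Ubn1 depletion had the smallest change at 695 of the higher and 345 of the lower genes, and Ubn2 depletion the largest at 553 and 470. The median change of the higher genes was 1.16 after Hira depletion, 0.63 after Ubn1 depletion and 1.19 after Ubn2 depletion. For the lower genes these medians were -0.72, -0.60 and -1.26. Since these genes were chosen by their average, the medians describe the calls and test nothing.

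A gene is named consistent below when it was called on average, each depletion's own fitted change passed 1.5-fold in that direction, and the test among depletions did not call it. The last condition is only the lack of a call, which low counts make likely, and does not show equal changes. Wnt11, for instance, met the rule at changes of -0.72, -1.45 and -2.02 after Hira, Ubn1 and Ubn2 depletion. There were 260 consistent higher genes (1.35% of those tested) and 136 consistent lower genes (0.706%). The 6 knockdown libraries lay above both controls at 241 of the 260 and below both at 123 of the 136. Over all genes tested, 11.6% lay above both controls and 10.8% below. The consistent genes were chosen by their folds against these same 2 controls. Their separation is largely set by that choice and tests nothing. The consistent higher genes were mostly low in control cells, at a median of 0.636 CPM, with 161 under 1 CPM and 29 at 3 counts or fewer in both controls. The consistent lower genes had a median of 2.25 CPM in controls. With 10 counts or more required in each library, 141 of the 260 and 78 of the 136 stayed consistent. Protein-coding genes made up 183 of the 260 (70.4%) and 76 of the 136 (55.9%), against 77.2% of the genes tested with a position. Both controls matter to these counts: without Control replicate 1 there were 153 and 89 consistent genes, and without Control replicate 2 there were 178 and 91. Of the 260 higher genes, 107 stayed consistent without Control replicate 1 and 110 without Control replicate 2. Of the 136 lower genes, 58 and 50 did. Counts of genes called lower on average also moved with a control, to 427 without Control replicate 2.

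**Figure D2:**
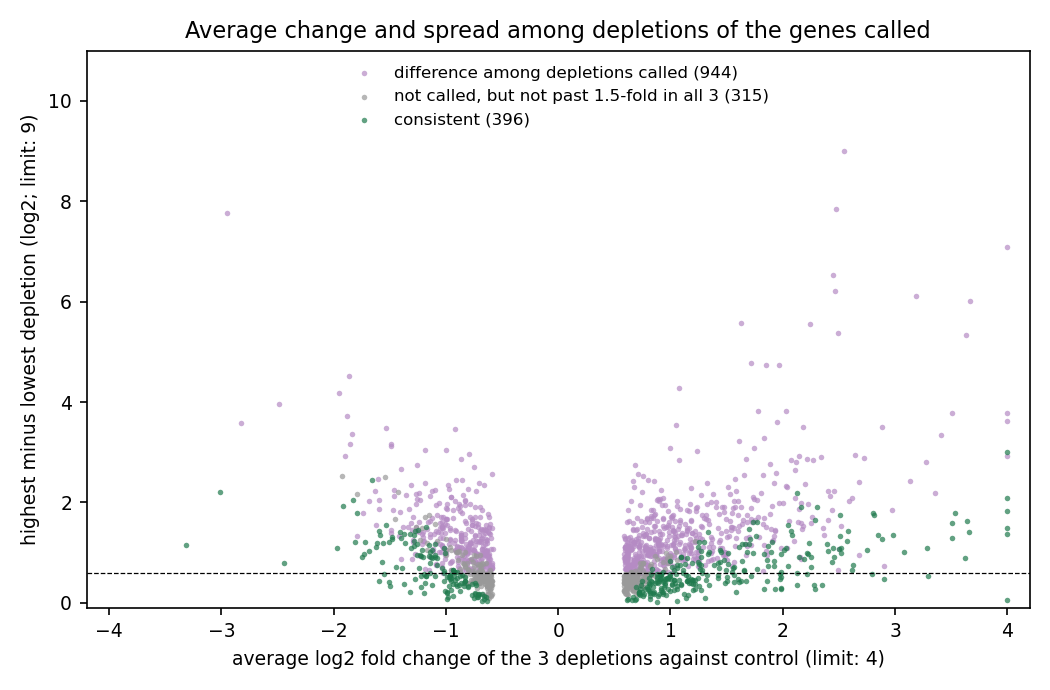
Each of the 1655 genes called on average, by its average log2 fold change (x axis) and the log2 distance between its highest and its lowest depletion (y axis), with the dashed line at 1.5-fold and 11 genes drawn at the axis limits. Genes called as differing among depletions (944, purple) reach spreads of several log2 units, while the 396 consistent genes (green) and the remaining 315 (grey) stay lower.

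A stricter reading treats the 6 knockdown libraries as one group, so that differences among depletions count as error. By that reading 23 genes were higher and 15 lower. All 38 only just passed, with adjusted p between 0.0436 and 0.0499 in the quasi-likelihood test of that fit. Adjusted p-values given elsewhere for these genes are those of the fit with 4 groups. All 38 were also called by the fit with 4 groups, and at all 38 the 6 knockdown libraries lay on one side of both controls. Both follow largely from the choice of these genes by the same values. Among them, 16 of the 23 and 9 of the 15 were consistent as defined above. At an unadjusted p under 0.05 that reading gave 3397 genes. Since it returned so few, all 38 are named here after their values were seen. The 23 higher genes were Stk35, Dbnl, Tnrc18, Ier5l, Brpf3, Otx2, Notum, Rxra, Nynrin, Myadml2os, Robo4, Gm26751, Zic2, Slit3, Pitpnm2, Mmrn2, Eng, Ptprv, Nkx2-9, Zscan4-ps2, Snx20, Zscan4f and Zscan4-ps3. The 15 lower genes were Trim40, Slc11a1, Chac1, mt-Tt, Msmo1, Cth, Gm43041, Psat1, Pecr, Sars, Gldc, Mthfd2, Zfp992, Lars and Nars. Psat1, Cth, Gldc and Mthfd2 encode enzymes of serine, cysteine, glycine and one-carbon metabolism, and Sars, Lars and Nars charge tRNAs with amino acids. Otx2, Zic2 and Nkx2-9 encode developmental transcription factors, and Eng, Robo4 and Mmrn2 encode proteins best known from endothelium.

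Promoters of members from the groups that the results below turn on are shown first, from 250 bases before to 50 bases after the RefSeq start on GRCm38.p6, 5′ to 3′ on the gene's strand. Capitals mark a short motif, found on either strand, and a motif match is a description of these letters and not a binding site. Bnip3 and Car9 represent the hypoxia genes, with ACGTG, the core of the hypoxia response element. That motif can also lie inside CACGTG, a sequence used by other factors. It occurred in 12 of 15 hypoxia-list genes with a promoter in the table, in 28.1% of the genes tested with one and in 19.6% of all 32851 promoters. The Bnip3 window is chr7:138909457-138909756 on the minus strand, and the Car9 window chr4:43506776-43507075 on the plus strand.
Bnip3: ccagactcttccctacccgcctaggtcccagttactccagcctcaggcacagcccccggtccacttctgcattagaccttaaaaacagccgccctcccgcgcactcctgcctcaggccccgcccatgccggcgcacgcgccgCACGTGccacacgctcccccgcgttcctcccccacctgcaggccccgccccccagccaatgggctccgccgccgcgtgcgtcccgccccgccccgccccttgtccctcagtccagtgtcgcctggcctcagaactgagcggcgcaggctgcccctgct
Car9: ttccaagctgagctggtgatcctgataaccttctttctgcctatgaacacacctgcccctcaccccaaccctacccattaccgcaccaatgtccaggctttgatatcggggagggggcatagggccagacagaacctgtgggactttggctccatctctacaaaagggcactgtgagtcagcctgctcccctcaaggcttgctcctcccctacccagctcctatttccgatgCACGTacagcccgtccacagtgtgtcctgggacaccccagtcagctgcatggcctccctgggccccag

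Chac1 and Asns represent the amino acid response, with TGATGNAA, the form of the amino acid response element searched. It occurred in 6 of 17 genes of that list, in 2.74% of genes tested and in 3.97% of all promoters. The Chac1 window is chr2:119350992-119351291 on the plus strand, and the Asns window chr6:7693160-7693459 on the minus strand.
Chac1: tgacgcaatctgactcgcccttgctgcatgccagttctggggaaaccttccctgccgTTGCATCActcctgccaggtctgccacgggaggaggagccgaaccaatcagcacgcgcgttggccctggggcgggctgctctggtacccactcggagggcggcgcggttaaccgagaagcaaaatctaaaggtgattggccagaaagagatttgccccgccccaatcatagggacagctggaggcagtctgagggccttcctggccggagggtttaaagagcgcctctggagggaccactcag
Asns: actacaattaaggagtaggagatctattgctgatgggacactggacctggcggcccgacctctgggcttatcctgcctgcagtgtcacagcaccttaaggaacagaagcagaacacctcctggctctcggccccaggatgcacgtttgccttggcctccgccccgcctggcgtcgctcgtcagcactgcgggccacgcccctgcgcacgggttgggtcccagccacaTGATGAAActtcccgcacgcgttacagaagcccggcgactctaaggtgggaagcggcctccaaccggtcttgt

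Zscan4d and Zscan4f represent the two-cell genes, with TATAAA, known as the TATA box. It occurred in 7 of 15 two-cell genes with a promoter, in 8.98% of genes tested and in 13.6% of all promoters. Members of this cluster are near copies of each other, so that reads could be split among them. The Zscan4d window is chr7:11166099-11166398 on the minus strand, and the Zscan4f window chr7:11397665-11397964 on the plus strand.
Zscan4d: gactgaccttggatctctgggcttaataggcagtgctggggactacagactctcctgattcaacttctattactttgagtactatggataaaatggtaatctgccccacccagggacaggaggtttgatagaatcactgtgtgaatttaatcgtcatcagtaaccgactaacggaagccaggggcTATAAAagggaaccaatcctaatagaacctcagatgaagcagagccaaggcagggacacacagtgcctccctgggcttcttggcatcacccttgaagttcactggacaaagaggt
Zscan4f: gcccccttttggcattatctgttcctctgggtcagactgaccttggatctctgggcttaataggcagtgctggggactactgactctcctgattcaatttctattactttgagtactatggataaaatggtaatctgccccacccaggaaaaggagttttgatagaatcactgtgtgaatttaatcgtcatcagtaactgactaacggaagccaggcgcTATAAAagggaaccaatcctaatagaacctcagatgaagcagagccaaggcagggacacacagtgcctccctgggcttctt

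Genes of the two-cell embryo had the highest median of the 25 gene lists. Of 25 listed genes, 15 passed the filter on low counts and 13 of these were called higher, none lower. The 6 knockdown libraries lay above both controls at the same number, 13. Among all genes tested, 5.23% were called higher and 11.6% lay above both controls. The filter asks for counts in as few as 2 libraries, so members near 0 in controls passed only through knockdown libraries. Of the 25 genes, 7 had 0 counts in both controls. The count called and the list's median are thus partly set by the filter. The list's median average change was 2.04, with 2.03 after Hira depletion, 1.59 after Ubn1 depletion and 2.72 after Ubn2 depletion. Its summed level was 12.8 and 6.54 CPM in the controls, 45.9 and 34.8 CPM in the Hira libraries, 27.9 and 29.6 CPM in the Ubn1 libraries and 47.4 and 68.5 CPM in the Ubn2 libraries. All 6 knockdown libraries were above both controls, with the Ubn1 pair lowest among them. In bulk RNA, more cells of this state and more RNA per cell cannot be told apart.

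Zscan4f, 1 of a cluster of zinc finger genes on chromosome 7 that mark the two-cell-like state, stood at 0.877 and 0.692 CPM in controls. Its 6 knockdown libraries ran from 3.34 to 7.91 CPM with a median of 4.90, so the groups did not overlap. The average change of Zscan4f was 2.68 (SE 0.27, adjusted p = 1.37e-07). Zscan4d went from 2.53 and 0.724 CPM to between 3.61 and 7.55 CPM, with an average change of 1.86 (SE 0.30, adjusted p = 6.08e-05). Zscan4e rose by 1.97 (SE 0.31) and Zscan4c by 2.04 (SE 0.25). Usp17lb, a ubiquitin protease gene of a two-cell family, went from 0.487 and 0.378 CPM to between 1.31 and 3.91 CPM. Tmem92, a transmembrane protein gene, went from 0.536 and 0.252 CPM to between 0.902 and 2.25 CPM, an average change of 1.98 (SE 0.45, adjusted p = 0.00212). Without Control replicate 2 this gene was no longer called, at 1.46 (adjusted p = 0.108). Gm12794 had 0 counts in both controls and 0.307 to 1.33 CPM after depletion. Against a floor of 3 counts per library, the mean of the 6 knockdown libraries was at least 6.38-fold higher. By depletion that bound was 7.01, 3.175 and 8.96 for Hira, Ubn1 and Ubn2. Zscan4d, Zscan4e, Usp17lc, Tmem92 and Gm12794 were the 5 consistent members, and 8 of the 15 differed among depletions. The controls differed here too: without Control replicate 1 the median was 2.61, and without Control replicate 2 it was 1.496 with 10 members called.

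**Figure D3:**
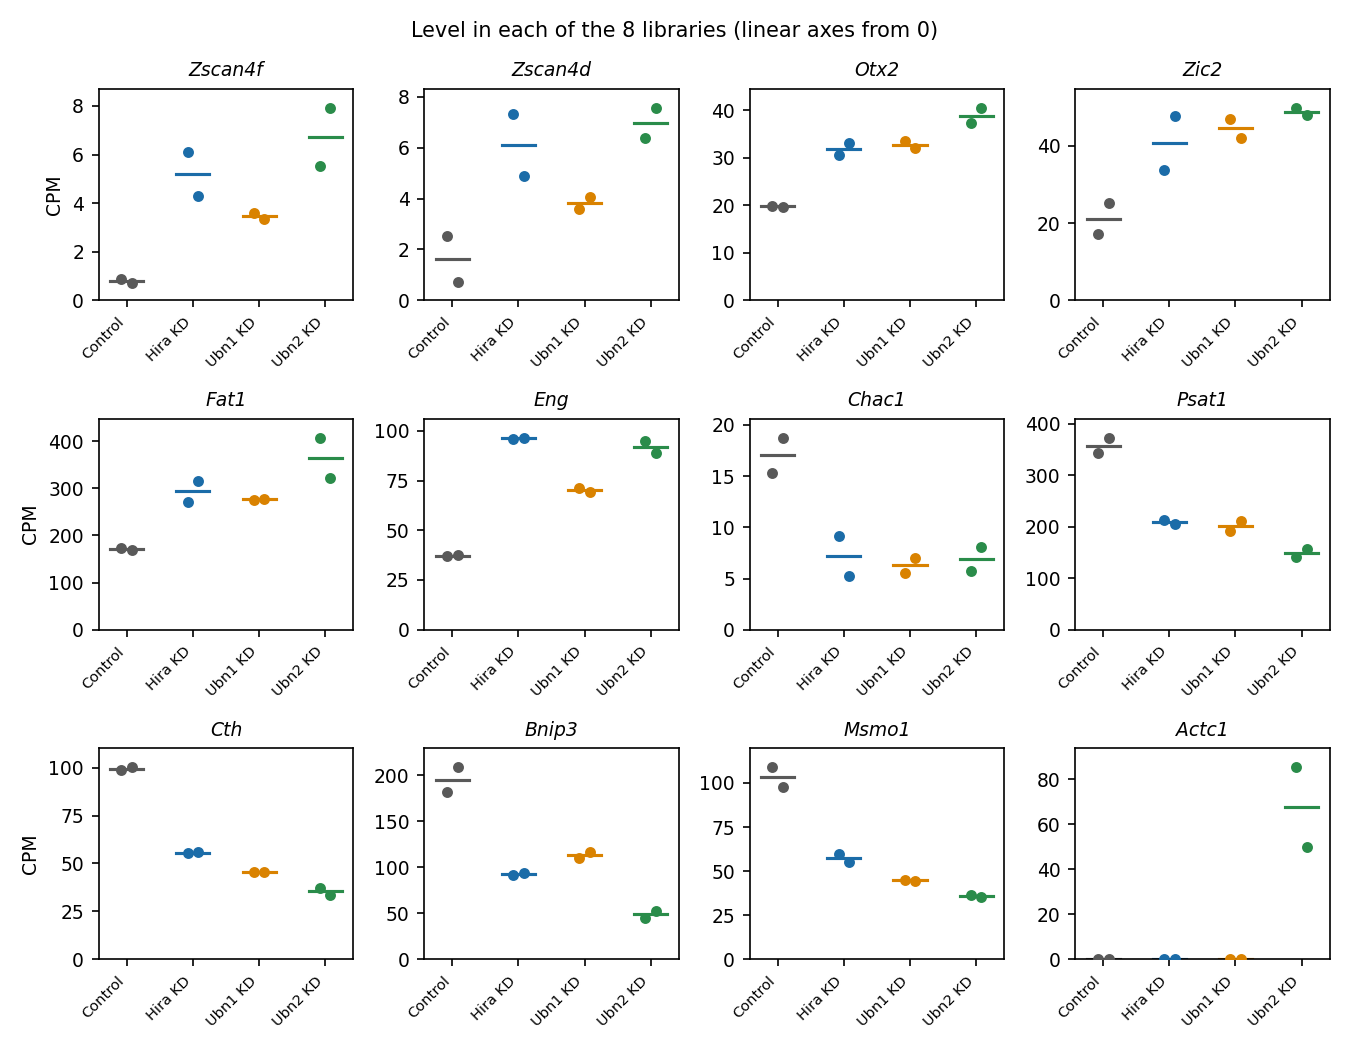
Level (CPM, linear axes from 0) of 12 genes in the 8 libraries, with points for libraries and lines for the mean of each pair. The 2 controls lie apart from all 6 knockdown libraries at every gene shown but Actc1, which was high in the Ubn2 libraries alone.

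The core pluripotency factors were not called. Pou5f1, the core pluripotency factor also called Oct4, stood at 1170 and 1256 CPM in controls and between 942 and 1142 CPM after depletion, a difference of -0.20 (SE 0.07, adjusted p = 0.0331). Sox2 had an average difference of 0.12 (SE 0.07, adjusted p = 0.231) and Nanog one of 0.21 (SE 0.08, adjusted p = 0.0366). All 3 ESC markers were abundant in all 8 libraries. Of the 21 pluripotency genes, 2 were called higher and 0 lower, with a median of -0.03, while 8.59% of all genes tested were called in either direction. Prdm14, a repressor that guards naive pluripotency, was consistent, at 16.5 and 20.4 CPM in controls and 29.0 to 33.2 CPM after depletion (0.72, SE 0.10, adjusted p = 7.17e-06). Nr0b1, a nuclear receptor gene of ESCs, rose by 0.64 (SE 0.07), with 1.00 after Ubn2 depletion, and was not called without that depletion (0.45). Lin28a, an RNA-binding protein gene, just missed the fold threshold at -0.58 (SE 0.07, adjusted p = 1.37e-06), and several alternatives, among them leaving out Control replicate 1 (-0.61), placed it past that threshold.

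Otx2, the homeodomain factor of the primed epiblast and later forebrain, rose in each depletion, most after Ubn2 depletion (F test among depletions, adjusted p = 0.0532). It stood at 19.8 and 19.7 CPM in controls and between 30.6 and 40.4 CPM in the 6 knockdown libraries, with a median of 33.4. The change was 0.69, 0.73 and 0.97 after Hira, Ubn1 and Ubn2 depletion, 0.80 on average (SE 0.09, adjusted p = 6.88e-07). Zic2, a zinc finger factor of the same stage, went from 17.2 and 25.1 CPM to between 33.8 and 49.7 CPM, with changes of 0.92, 1.06 and 1.19 and an average of 1.06 (SE 0.13, adjusted p = 1.19e-06). These 2 were the called members among 14 tested of 15 primed epiblast and streak genes, both consistent, and the list's median was 0.21. Among other lineages, 0 of 14 tested primitive endoderm genes was called on average, with a median of -0.07. That median joined 0.19, -0.20 and 0.07 after Hira, Ubn1 and Ubn2 depletion, and 7 of the 14 differed among depletions. Of 14 tested trophoblast genes 1 was called, Ascl2, a trophoblast and imprinted basic helix-loop-helix factor, which fell by 1.79 on the log2 scale (SE 0.26), from 3.02 and 6.23 CPM to between 0.644 and 2.50 CPM. Calls in either direction made up 8.59% of all genes tested. The trophoblast median of 0.08 joined 0.68, -0.14 and -0.07 after Hira, Ubn1 and Ubn2 depletion, and 9 of the 14 differed among depletions.

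Of 19 listed genes of amino acid supply and stress under the factor ATF4, all tested, 9 were called lower and 0 higher. Among all genes tested 3.36% were called lower. A positive average was found at 4 of the 19. In all 6 knockdown libraries 12 lay below both controls, against 10.8% of all genes tested. The median was -0.54 on average, and -0.48, -0.55 and -0.57 after Hira, Ubn1 and Ubn2 depletion, although 9 of the 19 differed among depletions. Chac1, a glutathione-degrading enzyme gene strongly driven by ATF4, stood at 15.3 and 18.8 CPM in controls and between 5.27 and 9.15 CPM after depletion. Its changes of -1.22, -1.44 and -1.31 average -1.32 (SE 0.16, adjusted p = 1.62e-06), and the depletions were not shown to differ (adjusted p = 0.686). Psat1, an enzyme of serine synthesis, went from 342 and 373 CPM to between 141 and 213 CPM (-0.96, SE 0.07, adjusted p = 6.05e-10). Mthfd2, a mitochondrial folate enzyme gene, went from 71.4 and 70.4 CPM to between 37.5 and 48.4 CPM (-0.74, SE 0.08). These 3 were the consistent members. Cth, which makes cysteine, fell by 0.84, 1.12 and 1.49 after Hira, Ubn1 and Ubn2 depletion, from 98.6 and 100.3 CPM to between 33.8 and 55.8 CPM (average -1.15, SE 0.07, adjusted p = 2.19e-11). Phgdh, the first enzyme of serine synthesis, went from 236 and 242 CPM to between 63.0 and 142 CPM (-1.31, SE 0.08). Asns, asparagine synthetase, fell by 0.60 on the log2 scale (SE 0.07) and Ddit3, the stress factor CHOP, by 0.66 (SE 0.12), both called.

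**Figure D4:**
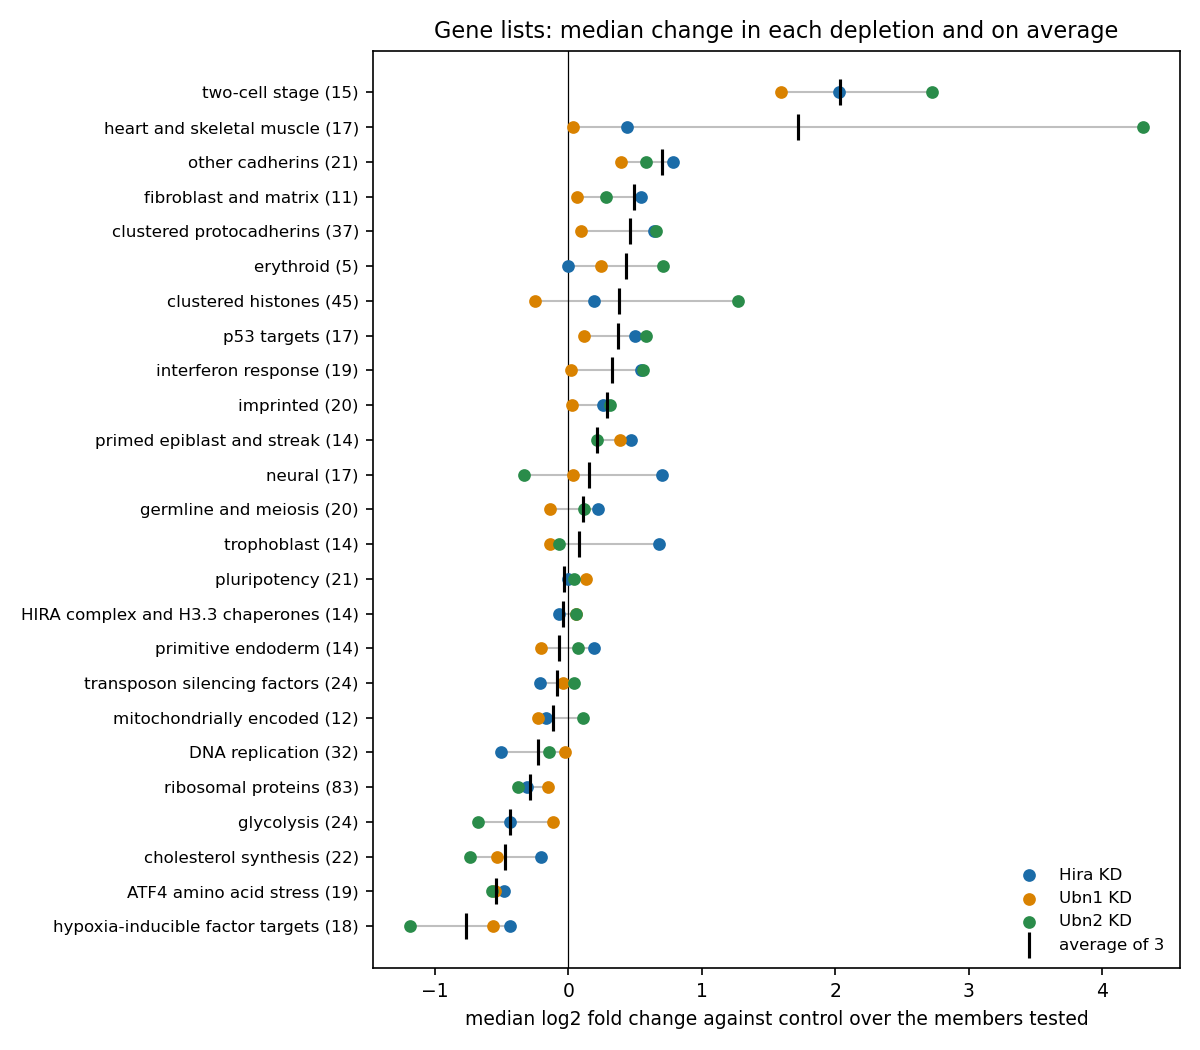
Median log2 fold change against control of each of the 25 gene lists after Hira (blue), Ubn1 (orange) and Ubn2 (green) depletion, with a bar for the average and the number of members tested in parentheses. The ATF4 list has its 3 medians closest together among the 4 lists with the lowest medians, and the muscle list has them farthest apart.

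Of 18 listed targets of hypoxia-inducible factors, all tested, 10 were called lower on average and 0 higher, and 17 had a negative average. Among all genes tested 3.36% were called lower. Every knockdown library lay below both controls at 10 of the 18, against 10.8% of all genes tested. The median was -0.77, with -0.44, -0.56 and -1.19 after Hira, Ubn1 and Ubn2 depletion, and 15 of the 18 differed among depletions. At 5 of them the fitted change passed 1.5-fold in all 3 depletions. Bnip3, a mitophagy receptor gene, stood at 182 and 209 CPM in controls, 91.2 and 93.7 CPM in Hira libraries, 110 and 116 CPM in Ubn1 libraries and 45.1 and 52.2 CPM in Ubn2 libraries. The average change of Bnip3 was -1.29 (SE 0.07, adjusted p = 5.17e-12). Vegfa, the angiogenic growth factor gene, went from 84.1 and 68.7 CPM to between 22.7 and 60.6 CPM (-0.91, SE 0.11). Ero1l, an oxidase of the endoplasmic reticulum, fell by 0.77 on the log2 scale (SE 0.07). Car9, a carbonic anhydrase gene and the 1 consistent member, went from 2.58 and 2.52 CPM to between 0.782 and 1.78 CPM (-1.09, SE 0.26, adjusted p = 0.00286). Without the Ubn2 depletion the list's median was -0.55, with 6 members called.

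Some genes of glycolysis and of cholesterol synthesis fell as well. The share called lower over all genes tested was 3.36%. All 24 glycolysis genes had a negative average, with a median of -0.44, and 5 were called: Pgk1, Pfkp, Aldoc, Eno1 and Eno2. Pgk1, phosphoglycerate kinase, went from 2096 and 1933 CPM to between 658 and 1453 CPM (-1.01, SE 0.07, adjusted p = 9.43e-10). Pfkp, a phosphofructokinase gene, fell by 0.82 on the log2 scale (SE 0.07), with -0.44 after Ubn1 depletion and -1.31 after Ubn2 depletion. Without the Ubn2 depletion Pfkp stood at -0.58 and was not called, and 3 of the glycolysis genes were. Of 22 cholesterol synthesis genes, 7 were called lower and 0 higher, with a median of -0.48 and with -0.20, -0.54 and -0.74 after Hira, Ubn1 and Ubn2 depletion. Msmo1, a sterol oxidase gene, went from 109.0 and 97.6 CPM to between 35.5 and 59.9 CPM (-1.19, SE 0.07, adjusted p = 2.19e-11). Cyp51, a sterol demethylase gene, fell by 0.89 on the log2 scale (SE 0.07). Insig1, which restrains the pathway, stood at 132 and 122 CPM in controls and 121 and 120 CPM in Hira libraries, but at 70.2 and 80.7 CPM in Ubn1 libraries and 45.3 and 43.6 CPM in Ubn2 libraries. Without the Ubn2 depletion 2 members of the cholesterol list were called.

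**Figure D5:**
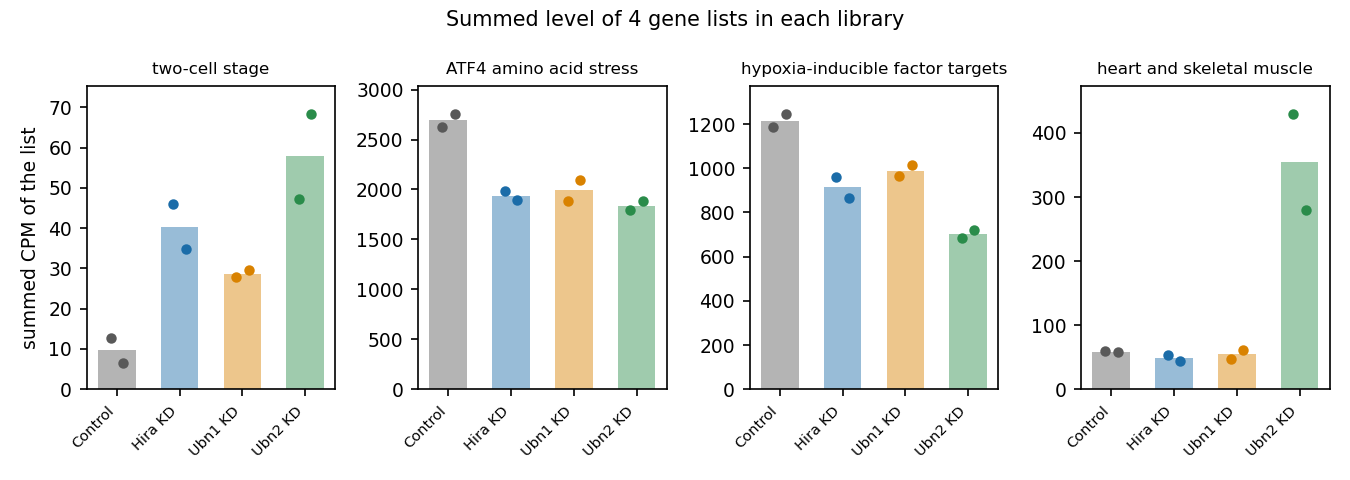
Summed level (CPM, linear axes from 0) of 4 gene lists in each library, with points for libraries and bars for the mean of each pair. The two-cell sums are higher and the ATF4 and hypoxia sums lower in all 6 knockdown libraries than in both controls, while the muscle sums stand apart in the Ubn2 libraries alone.

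Muscle genes were called on average through 1 depletion. The share called higher over all genes tested was 5.23%. Of 17 heart and skeletal muscle genes, 11 were called higher on average and 1 lower, yet the median change was 0.44 after Hira depletion, 0.03 after Ubn1 depletion and 4.31 after Ubn2 depletion. Their summed level was 430 and 280 CPM (280.5) in the Ubn2 libraries and 44.6 to 61.0 CPM in the other 6. Actc1, cardiac actin, stood at 85.4 and 49.7 CPM in the Ubn2 libraries and at 0.0456 to 0.242 CPM in the other 6. In those 6 libraries Actc1 had at most 8 counts. The average change of 2.55 (SE 0.79, adjusted p = 0.0177) joins 0.12, -1.22 and 8.74 after Hira, Ubn1 and Ubn2 depletion. Myh7, Tnnt2 and Myl3, encoding a myosin heavy chain, a troponin and a myosin light chain, were also by far highest after Ubn2 depletion. Their averages were 2.49, 2.45 and 2.47. Myh7 changed by 0.79, 0.65 and 6.03 after Hira, Ubn1 and Ubn2 depletion. At 4 of the 17 genes the fitted change passed 1.5-fold higher in all 3 depletions. Without the Ubn2 depletion 0 of the 17 genes was called higher and the median was 0.13. Actc1 also lost its call without either Control library (2.25 and 3.17), without Hira_KD replicate 1 (1.98) or without Ubn1_KD replicate 2 (2.41), and Myl3 without Control replicate 2 (1.66). Among lower genes whose depletions differed most, A2m, a protease inhibitor gene, changed by -0.69, 0.02 and -1.49 after Hira, Ubn1 and Ubn2 depletion. Loxl2, a lysyl oxidase gene, changed by 0.14, -0.25 and -2.09. Without the Ubn2 depletion A2m, Insig1 and Loxl2 had averages of -0.34, -0.42 and -0.06 and none was called.

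Markers of other cell types moved in part. The shares called over all genes tested were 5.23% higher and 3.36% lower. Of 15 tested endothelial genes, on a list written after the values were seen, 6 were called higher and 0 lower, while 6 had a negative average. Of 17 tested neural genes, 1 was called, Nes, an intermediate filament gene of neural progenitors, at 0.81 (SE 0.10), and the median of 0.16 joined 0.70 after Hira, 0.04 after Ubn1 and -0.33 after Ubn2 depletion. Without the Hira depletion Nes stood at 0.50 and was not called. Of 11 tested fibroblast and matrix genes, Fbn1, a fibrillin gene, rose from 3.80 and 4.66 CPM to between 8.83 and 17.97 CPM (1.42, SE 0.15), Pdgfrb fell, and the median was 0.49. No erythroid gene was called among 5 tested. Whether such cells are part of any change above was not tested.

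Some cadherin genes rose, where 5.23% of all genes tested were called higher. Of 21 tested cadherins outside the protocadherin clusters, 6 were called higher and 0 lower, with a median of 0.70. Fat1, a giant atypical cadherin, was consistent at 173 and 168 CPM in controls and 271 to 407 CPM after depletion (0.86, SE 0.09, adjusted p = 1.09e-07). Cdh4, the retinal cadherin gene, was consistent at a low level (0.97, SE 0.27, adjusted p = 0.0100). Without Control replicate 1 or Control replicate 2, 3 of these cadherins were called. The clustered protocadherins, whose isoforms share exons so that reads can count for several of them, had 0 of 37 tested members called. At 36 of the 37 the average was positive. Above both controls lay 23, against 11.6% of all genes tested, and the list's median was 0.46. After Ubn1 depletion that median was 0.10, against 0.64 and 0.65 after Hira and Ubn2 depletion, and without the Ubn1 depletion 22 members were called higher.

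The p53 and interferon lists had their lowest medians after Ubn1 depletion. The share called higher over all genes tested was 5.23%. Of 17 p53 targets, 4 were called higher and 0 lower, and the median of 0.37 joins 0.50, 0.12 and 0.58 after Hira, Ubn1 and Ubn2 depletion. Perp, a desmosome protein gene induced by p53, went from 13.7 and 11.9 CPM to between 20.3 and 61.7 CPM, with changes of 2.27, 0.70 and 1.96 (average 1.64, SE 0.10, adjusted p = 2.19e-11). Plk2, a kinase gene, rose by 0.90 (SE 0.08). Of 19 tested interferon response genes, 5 were called higher and 0 lower, and the median was 0.33, with 0.55, 0.02 and 0.56 after Hira, Ubn1 and Ubn2 depletion. Samd9l, an antiviral gene, rose by 3.363, 1.503 and 1.574 (average 2.15, SE 0.33). H2-D1, a class I histocompatibility gene, rose by 0.67 on average (SE 0.09), but changed by -0.07 after Ubn1 depletion, and lost its call without Control replicate 2 (0.57). Without the Hira depletion 1 interferon gene was called, and without the Ubn2 depletion 2 were.

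Germline genes moved both ways, with 3 of 20 tested called higher, 3 lower and a median of 0.11. Smc1b, a meiotic cohesin gene, was consistent, at 39.8 and 34.5 CPM in controls and 15.2 to 24.3 CPM after depletion (-0.96, SE 0.10, adjusted p = 1.19e-07). Stra8, the meiotic entry gene, fell by 1.04 on the log2 scale (SE 0.14), and Dazl, a germ cell RNA-binding protein gene, rose by 0.80 (SE 0.12). Of 20 tested imprinted genes, Mirg, a noncoding RNA gene of the Dlk1-Dio3 region, was called higher at 0.60 (SE 0.08) and Phlda2, a growth-restraining gene, lower at -0.83 (SE 0.11), with a median of 0.29. Calls in either direction made up 8.59% of all genes tested. Mirg sat at the threshold and lost its call without Control replicate 2 (0.55), Ubn1_KD replicate 2 (0.54) or Ubn2_KD replicate 2 (0.58). Of 45 tested clustered histone genes, 5 were called higher and 2 lower, and 27 differed among depletions. Their median of 0.38 joined 0.19 after Hira, -0.25 after Ubn1 and 1.27 after Ubn2 depletion. Hist1h2bc rose by 0.67 (SE 0.08) and lost its call without Control replicate 1 (0.56), and without that library 2 histone genes were called higher. Most histone mRNAs lack a poly(A) tail, and the library kit selected mRNA.

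Housekeeping lists held no called gene. Of 83 ribosomal protein genes, 0 were called, yet 41 lay below both controls in all 6 knockdown libraries, against 10.8% of all genes tested. A negative average was found at 79, with a median of -0.29. With DESeq2's size factors that median was -0.30. Rpl4 went from 3092 and 3005 CPM to between 2003 and 2537 CPM (-0.43, SE 0.07, adjusted p = 3.18e-05). Of 32 DNA replication genes, 0 were called and 30 had a negative average (median -0.23), with -0.50 after Hira depletion, -0.03 after Ubn1 depletion and -0.15 after Ubn2 depletion. Of 24 transposon silencing factors, 0 were called, with a median of -0.08. Of 12 tested mitochondrially encoded genes, 0 were called, with a median of -0.11.

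Among consistent genes with a mean of at least 1 CPM and no overlap with controls, the named genes with the highest averages were low in control cells. After 8 models without a given name were passed over, these were Pof1b, Tril, AI662270, Tmem92, Zscan4e, Mecom, Zscan4d and Plau. Pof1b, encoding an actin-binding protein of epithelia, went from 0.390 and 0.189 CPM to between 0.685 and 2.39 CPM (2.39, SE 0.45). Tril, encoding a Toll-like receptor cofactor, went from 0.292 and 0.440 CPM to between 1.24 and 3.04 CPM (2.14, SE 0.39). AI662270 had changes of 2.12, 1.83 and 2.00, among the closest of this set. Mecom, a zinc finger regulator gene of blood stem cells, rose by 1.90 (SE 0.45), and Plau, urokinase, by 1.73 (SE 0.43). Neither was called without Control replicate 1, at 1.39 and 1.55.

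The 8 lowest averages by the same rule, with 2 models passed over, belonged to Dmrtc2, Wnt11, Ovgp1, Chac1, mt-Tt, Fam228b, Grin2c and Ubap1l. Dmrtc2, a germ cell factor gene of the doublesex family, went from 2.87 and 4.22 CPM to between 0.855 and 2.04 CPM (-1.44, SE 0.26). Wnt11, a signalling ligand gene, went from 2.53 and 2.20 CPM to between 0.459 and 2.06 CPM (-1.40, SE 0.33). Ovgp1, an oviduct glycoprotein gene, went from 7.89 and 5.88 CPM to a median of 2.47 CPM, with all 6 knockdown libraries below both controls (-1.39, SE 0.21). The mitochondrial threonine tRNA gene mt-Tt went from 10.4 and 9.12 CPM to between 3.27 and 4.92 CPM (-1.28, SE 0.15). Fam228b and Ubap1l fell by 1.23 (SE 0.22) and 1.18 (SE 0.18) on the log2 scale. Grin2c, a glutamate receptor subunit gene, fell by 1.18 (SE 0.30) and was not called without Control replicate 2 (-1.08, adjusted p = 0.105).

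Some consistent genes lay side by side. Of the 260 higher genes, 67 had another consistent higher gene within 200 kb, in 30 groups, and of the 136 lower genes 17 did, in 8 groups. Some groups pair overlapping or antisense models, whose reads cannot be told apart without strand, and no rate for other genes was computed. The group with most members lay on chromosome 12 from 87861366 to 88027438 (GRCm38) and held Gm1995, Gm2016, Gm2022, Gm2035 and Gm2056. These are unnamed models of one cluster, and reads could be split among them if they are near copies. Another held Myadml2os, Notum and Dcxr on chromosome 11 from 120647670 to 120727281. Notum, an enzyme gene that inactivates Wnt ligands, went from 30.6 and 32.9 CPM to between 44.4 and 61.3 CPM (0.82, SE 0.09, adjusted p = 5.46e-07).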

How the data were processed

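RNA was measured in 8 mRNA-seq libraries, 2 per group, made with the VAHTS mRNA-seq kit and read from both ends. The authors trimmed reads with Trim Galore, aligned them to GRCm38 with STAR and deposited featureCounts counts per gene, without normalization, in 3 tables of 55418 symbols. Tool versions and the strand setting are not given in the sources used here. Without strand, reads of overlapping and antisense genes cannot be told apart. The tables were joined by symbol. Control counts differed at 0 genes between tables and entered once, and 21460 genes had no count. Totals lay between 19710040 and 32706053, which sets a floor of 3 counts per library for low genes.

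One fit held all 8 libraries with 4 group means in edgeR 4.0.16 (R 4.3.3), with TMM scaling (factors 0.970 to 1.06), filterByExpr and quasi-likelihood tests. Standard errors were derived from each log2 fold change and its quasi-F value. Groups follow the sample labels. Named genes are the 3 targets, up to 8 consistent genes in each direction, 4 called genes in each direction with the smallest p among depletions, 2 members of each of 25 lists by adjusted p, and Pou5f1, Sox2 and Nanog. Other list members give counts or examples and were named after their values were seen. The members, lists, motifs and promoters were chosen with earlier results of these data known. Positions are from GENCODE M21 and promoters from RefSeq. Alternatives were DESeq2 1.42.0 and its size factors, other filters, one knockdown group, a replicate block, adjusted p alone, and averages without a depletion or a library. The fits were tested on simulated counts. Python 3.11.15, pandas 2.3.3, numpy 2.4.6 and matplotlib 3.10.9 were used.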

Additional observations from a re-analysis of the deposited data

Results flagged for a closer look

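At 44 of the 77 named genes the 3 depletions differed from each other by the F test of the knockdown groups (edgeR, adjusted p under 0.05 over all genes tested, and a spread over 1.5-fold). That test calls 23.3% of all genes. The count is not to be read against that share, since some named genes were picked for the smallest p in this test (Hira, Actc1, Myh7, Tnnt2, Myl3, A2m, Insig1 and Loxl2) and the consistent genes for not being called by it. Among the 44, 3 are the targeted genes Hira (1.75e-17), Ubn1 (2.87e-10) and Ubn2 (1.87e-08). In what follows the value after a gene is that adjusted p.

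Genes highest after Ubn2 depletion include the muscle genes Actc1 (1.75e-17), Myh7 (4.1e-16), Tnnt2 (1.73e-15), Myl3 (2.43e-15) and Myl2 (4.76e-14). The erythroid gene Hba-a1 (1.69e-05) was at 2.62 and 1.07 CPM there, and at or under 0.152 CPM in the other 6 libraries. Nr0b1 (2.53e-06), Hist1h4i (5.96e-09), Hist1h2bc (2.59e-10), Mirg (9.64e-09), mt-Nd1 (6.12e-05), Zscan4f (0.0111), Zscan4c (0.00369), Plk2 (1.55e-06), H2-D1 (1.57e-08) and Gata3 (0.0493), a trophoblast factor gene, were also highest there. For mt-Nd5 (0.000197) the changes after Hira, Ubn1 and Ubn2 depletion were -0.61, -0.34 and 0.16.

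Genes lowest after Ubn2 depletion include the hypoxia, glycolysis, cholesterol and amino acid genes Bnip3 (1.74e-09), Ero1l (2.28e-05), Pgk1 (2.23e-07), Pfkp (2.97e-07), Insig1 (7.85e-11), Msmo1 (1.42e-05), Cyp51 (1.86e-05), Cth (1.86e-05) and Phgdh (6.4e-06). A2m (5e-11), Loxl2 (7.36e-10), Lin28a (2.07e-08), Ascl2 (0.0288), Stra8 (9.13e-06) and Pdgfrb (2.27e-07), a receptor kinase gene, belong here too. Lin28a changed by -0.17, -0.39 and -1.17.

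Genes set apart by Hira depletion include Cdh3 (1.2e-13), the placental cadherin gene, which changed by 1.48, -0.40 and 0.05. Hells (4.45e-09), a chromatin remodeller gene, changed by -1.26, -0.13 and 0.06, and Cdc6 (2.97e-06), which loads the replicative helicase, by -0.86, -0.15 and -0.39. Nes (3.66e-08), Samd9l (1.49e-05) and Fbn1 (5.67e-05) were highest and Gata1 (0.00616), an erythroid factor gene, was lowest after Hira depletion. Perp (1.78e-10) was also highest there, but was set apart by its small change after Ubn1 depletion. Tubb3 (3.16e-08), neuronal tubulin, was set apart by Ubn2 depletion instead, with changes of 0.88, 0.62 and -0.12 after Hira, Ubn1 and Ubn2 depletion.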

How the results depend on the processing

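The average called 1008 genes higher and 647 lower, and 23 and 15 when the 6 knockdown libraries formed one group, in which differences among depletions count as error. Adjusted p alone gave 2615 and 2524, and leaving out the Ubn1 depletion 1596 and 987. Without the Ubn2 depletion 381 were lower. DESeq2 gave 796 and 504. Leaving out single libraries gave 682 to 977 higher and 427 to 748 lower. The difference among depletions, 4480 genes, came to 8251 by adjusted p alone, 1665 without the Hira depletion and 2400 without the Ubn2 depletion, where 2 groups remain, and 3725 to 4613 with a library left out.

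Of consistent genes, 260 higher and 136 lower, requiring 10 counts or more in each library left 158 and 80, and DESeq2 198 and 89. Adjusted p alone gave 963 and 957, the average without Ubn1 848 and 410, and without Hira 341 lower. Leaving out libraries gave 153 to 305 and 89 to 187, with a lone library assumed to vary like the other groups. With 2 depletions the rule asks for agreement of 2, not 3.

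The average of Hira turned to 0.21 without the Hira depletion. Of the other 1367 values of named genes under these alternatives 1256 kept direction and call, 74 lost the call, 46 of them with one knockdown group, and 37 gained it.

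A fit blocked on the replicate number gave 992 higher and 640 lower genes, of which 252 and 128 were consistent, and 4404 that differed. No named gene changed its call under the block. Whether equal numbers pair libraries was checked by the correlation of their deviations from group means, which lay between -0.121 and 0.112 over 6 pairs of groups, so the numbers were not taken as pairs.

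With 2 libraries per group and 2 shared controls, genes near 1 CPM are the least certain. At this depth 3 counts equal 0.0917 to 0.152 CPM, and levels under that floor rest on very few counts.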

Other observations

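The lists in this section were written after the values were seen, so their counts are descriptions. Cytosolic aminoacyl-tRNA synthetases, the enzymes that load amino acids onto tRNAs, had small negative averages. All 20 averages were negative and 17 genes lay below both controls in every knockdown library, while over all genes tested 10.8% did. Between depletions 12 of the 20 differed at an adjusted p under 0.05, but none by 1.5-fold, and Farsa changed by -0.39, 0.09 and 0.18 after Hira, Ubn1 and Ubn2 depletion. Their median was -0.36, with -0.47, -0.30 and -0.33 after Hira, Ubn1 and Ubn2 depletion. Sars, Lars and Nars were the 3 called. Sars went from 258 and 271 CPM to between 124 and 185 CPM (average -0.82, SE 0.07, adjusted p = 1.74e-08). Lars went from 362 and 355 CPM to between 207 and 238 CPM, with changes of -0.79, -0.62 and -0.70.

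Endothelial genes moved unevenly. Of 15 tested, 6 were called higher and 0 lower, with a median of 0.53, while 5.23% of all genes tested were called higher. The average was positive at 9 and negative at 6. Eng, a coreceptor of the TGF-beta family, went from 36.8 and 37.6 CPM to between 69.1 and 96.5 CPM (1.20, SE 0.07, adjusted p = 5.31e-11). Mmrn2, a matrix protein gene, went from 49.7 and 46.9 CPM to between 88.9 and 129 CPM (1.18, SE 0.07), and Robo4, a guidance receptor gene, from 15.4 and 17.96 CPM to between 26.6 and 36.6 CPM (0.94, SE 0.11). Tek, Kdr and Cdh5, defining receptors and the endothelial cadherin, were also called and differed among depletions. Tek went from 14.2 and 12.8 CPM to 42.3 and 43.0 CPM in Hira libraries and between 18.5 and 22.0 CPM in the other 4 (0.95, SE 0.10, adjusted p = 2.13e-07). Kdr stood at 1.36 and 1.35 CPM in controls and changed by 1.64, 0.40 and 2.56 (average 1.53, SE 0.25, adjusted p = 6.88e-05). Cdh5 had 3 counts in each control and reached 3.45 and 1.48 CPM in the Ubn2 libraries, against 0.0909 to 0.307 CPM in the Hira and Ubn1 libraries. Of other defining genes, Tie1, Flt1 and Cldn5 were at 2.33, 1.84 and 1.60 CPM on average in controls and none was called. Their average changes were -0.15, -0.33 and -0.14. Egfl7 and Vwf, also not called, had averages of -0.09 and -0.33. Esam, not called either, changed by -1.05, 0.83 and 1.82 after Hira, Ubn1 and Ubn2 depletion. Emcn, another, had 0 counts in both controls and was not tested. Whether such cells are part of the change was not tested. Pecam1, which ESCs also express, stood at 110 CPM in controls (109.98) and had an average change of -0.27.

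The window reaching 500 kb to either side of the chromosome 12 group, from 87361366 to 88527438 (GRCm38), holds 98 annotated models, of which 46 had no count in any library and 19 were tested. Of these, 13 were called higher, 10 of them consistent, and all 13 lay above both controls in every knockdown library. Over all genes tested, 5.23% were called higher, 1.35% were consistent higher genes and 11.6% lay above both controls. Models near 0 in controls, such as Gm2056 with 0 counts in both, passed the filter only through knockdown libraries. The window was also placed around the group with most consistent higher genes. These counts are thus partly set by the filter and by that choice, and test nothing. Summed over the called models, the level was 5.26 and 4.18 CPM in controls, 26.6 and 21.0 CPM in Hira libraries, 16.7 and 14.8 CPM in Ubn1 libraries and 23.4 and 39.1 CPM in Ubn2 libraries. The named genes tested in the same window, Alkbh1, Slirp, Snw1 and Adck1, had averages of -0.08, -0.17, -0.18 and 0.05 and were not called. Reads could be split among the models, which were not checked for shared sequence. BB287469, a member of the two-cell list, also lies in this window. It had 1 and 0 counts in controls and 4 to 10 after depletion, and did not pass the filter.

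Among the 38 genes called with the knockdown libraries as one group, Trim40, a ubiquitin ligase gene, had the lowest average at -3.31 (SE 0.51). It stood at 0.828 and 1.29 CPM in controls and between 0.0460 and 0.183 CPM after depletion. The knockdown levels of Trim40 rest on 1 to 4 counts per library, near the floor, so the size of its fold is uncertain. Slc11a1, a metal transporter gene of macrophages, went from 57.98 and 68.1 CPM to between 14.9 and 31.5 CPM (-1.40, SE 0.09).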
